A study of Mus musculus with 71 samples.

Results

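The step from DN1 to DN2a thymocytes was described across all 12443 of the 24420 listed genes that were above 1 TPM (a transcript level corrected for length and for sequencing depth) in at least 1 of 6 libraries. The genes were taken from poly(A) RNA libraries, 3 of DN1 cells and 3 of DN2a cells, out of 71 samples in a study of the transcription factor Pax5 and of lymphoid progenitors in mice. Both groups were wild-type C57BL/6 cells sorted by FACS directly from the thymus and differed by label in stage alone. Both gates took CD44+ cells with high Kit that lacked lineage antigens (among them CD4, CD8a, CD11b, CD11c, TCRβ, TCRγδ, NK1.1, Gr1 and Ter-119), and the DN1 gate was CD25− while the DN2a gate was CD25+. The age of the mice behind each library and any pooling of animals were not given in the sources used here, beyond 1 broad age range, from young to adult, for mice analysed by flow cytometry, so p-values measure the spread between libraries, which may be technical. In each stage 2 libraries carried the same replicate number, and they are called DN1 replicates 2 and 2b and DN2a replicates 1 and 1b here.

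DN1 cells, also called early thymic progenitors, are recent immigrants from the bone marrow that still have lineage options besides the T cell fate. Under Notch signals from the thymic stroma they begin to express CD25 and become DN2a cells, which retain some of these options until the transcription factor Bcl11b closes them. The T cell programme is built up in the same window: adaptors and kinases of the T cell receptor pathway appear, the receptor loci become accessible, and stem-cell and myeloid factors are lost.

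The 3 libraries of a stage resembled each other more than those of the other stage. Across genes, log2 values correlated with r = 0.969 to 0.972 within DN1, 0.955 to 0.968 within DN2a and 0.905 to 0.934 between stages, where genes are not independent replicates. For 74.4% of 1149 genes with low values, the values were whole multiples (within 0.1) of 1 step, taken as 1 read, and these steps placed the depth of the other 5 libraries at 1.36 to 1.90 times that of DN1 replicate 1. The 50 most abundant genes held 20.7 to 22.7% of all TPM in DN1. They held 26.6 and 27.6% in DN2a replicates 1 and 1b but 20.9% in DN2a replicate 2, which thereby stood apart from its group. The median tested gene moved with this, at 22.5 to 24.4 TPM in DN1, at 19.3, 18.3 and 23.7 TPM in DN2a replicates 1, 1b and 2, and its log2 fold change was -0.19. Fold changes are on the log2(TPM + 0.1) scale, which understates those of genes at low levels, and list medians are to be read beside that shift.

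The labels were checked with *Il2ra*, and the other genes of the gates are given beside it. *Il2ra*, the gene of CD25, was at 36.5, 23.1 and 43.4 TPM in DN1 replicates 1, 2 and 2b and at 528, 548 and 738 TPM in DN2a replicates 1, 1b and 2, the order kept throughout. *Cd44* was at 132, 114 and 118 TPM in DN1 and at 37.5, 43.5 and 44.7 TPM in DN2a. *Kit* was at 333, 288 and 335 TPM and then at 216, 252 and 283 TPM, with a log2 fold change of -0.36 ± 0.14 (SE) and an adjusted p of 0.093 (limma, Benjamini-Hochberg over all genes). Only CD25 differed between the gates, so the difference of *Il2ra* checks the labels and is no finding. Both gates took CD44+ cells with high Kit, so *Cd44* and *Kit* do not check the labels. *Gata3*, a factor that T cell development needs, was at 89.7, 72.6 and 71.4 TPM in DN1 and at 98.5, 73.2 and 139 TPM in DN2a. The ranges of *Gata3* overlapped and its log2 fold change of 0.37 ± 0.23 did not pass the test (limma adjusted p = 0.257), although it did after centring the libraries on their medians (0.58, limma adjusted p = 0.0336 for *Gata3*).

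More genes were lower in DN2a than higher. At an adjusted p under 0.05 by limma, 2927 genes differed (23.5% of those tested), of which 960 were higher in DN2a (7.72%) and 1967 were lower (15.8%). These counts depended on the libraries. Without DN2a replicate 2 they were 1715 and 4980, without DN2a replicate 1 they were 315 and 911, without DN2a replicate 1b they were 686 and 1508, and without DN1 replicate 1, 2 or 2b they were 323 and 861, 368 and 946, and 414 and 989. Scaling changed their balance: the higher genes made up 32.8% of calls, but 47.4% after median centring and 49.2% after quantile normalization. The genes that were also changed more than 3-fold and had a mean above 5 TPM in 1 stage, the thresholds of the study, were steadier. There were 95 higher genes (0.763%) and 278 lower genes (2.23%) of this kind. Leaving out any 1 library gave 89 to 96 and 249 to 361. In all of the 95 and 278 genes the libraries of the stages did not overlap, which such thresholds nearly require and which adds no support. Over all genes tested, every DN2a library lay above every DN1 library in 16.5% and below in 27.2%. The counts of gene lists below are to be read beside the 7.72% and 15.8% of all genes called.

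**Figure D1:**
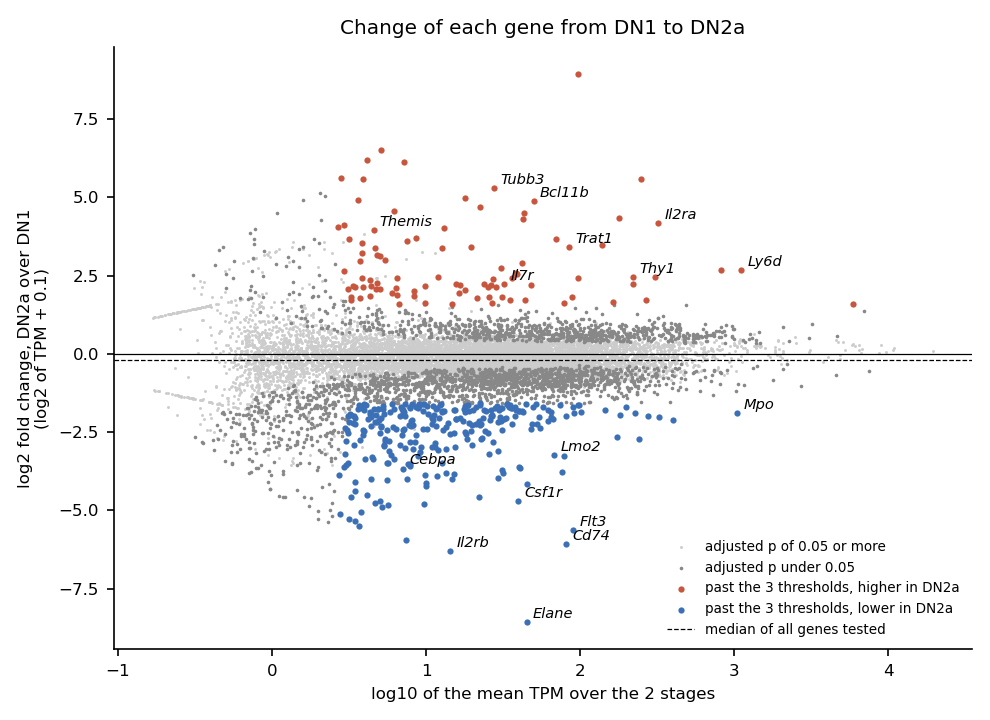
Each point is 1 of 12443 genes, with the log10 of its mean TPM over both stages on the horizontal axis and its log2 fold change, DN2a over DN1, on the vertical axis; coloured points are the 95 higher and 278 lower genes past the 3 thresholds. The dashed line is the median of all genes at -0.19, and *Elane* lies lowest at -8.56.

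The segments of the T cell receptor loci led the genes that were higher in DN2a. Of the 10 genes with the largest increase by the naming rule, 6 were such segments: *Trgj2*, *Trgj3*, *Trgj4*, *Trdj2* and the genes listed as *Gm17356* and *Gm16603*, which RefSeq (GRCm38.p6) now names *Trgc3* and *Trgc2*, constant regions of the γ chain. *Gm16603* (*Trgc2*) was at 9.99, 5.85 and 15.4 TPM in DN1 and at 374, 685 and 403 TPM in DN2a, a log2 fold change of 5.59 ± 0.36 (limma adjusted p = 6.59e-05). *Gm17004* (*Trgc1*) was at 19.4, 11.5 and 18.3 TPM and then at 276, 508 and 242 TPM. *Gm17356* (*Trgc3*) was at 0.346, 0 and 0.0972 TPM and then at 15.6, 12.5 and 14.9 TPM. In all 3 constant regions every DN2a library lay above every DN1 library. *Trgc1* and *Trgc2* are close copies, so the split of reads between them is uncertain.

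The joining segments of the γ locus rest on few reads. *Trgj2*, of 60 bases, was listed at 0 in DN1 replicates 1 and 2 and at 5.92 TPM in 2b, against 203, 174 and 196 TPM in DN2a. Taking 1 read from the steps of *Trgj1*, also of 60 bases, the *Trgj2* values stood for 0, 0 and 3 reads in DN1 and 96, 91 and 84 reads in DN2a. *Trgj1* itself had 3, 1 and 1 reads in DN1 and 27, 49 and 39 reads in DN2a. *Trgj3* was listed at 0 in the 3 DN1 libraries and had 5, 8 and 2 reads in DN2a. *Trgj4* was likewise at 0 in DN1 and had 7, 3 and 2 reads in DN2a. The δ locus moved the same way: *Trdj1* was at 83.9, 97.3 and 102 TPM in DN1 and at 546, 536 and 464 TPM in DN2a (log2 fold change 2.45 ± 0.13, limma adjusted p = 3.51e-05). *Trdj2* was at 3.55, 2.65 and 0 TPM and then at 21.5, 29.1 and 49.96 TPM, a call at a limma adjusted p of 0.0227 that was lost without DN2a replicate 1 (limma adjusted p = 0.0741).

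Of 198 receptor segments in the files, a list made after these values were seen, 45 passed the filter on low values, 17 were higher and 1 was lower. Over all genes tested, 7.72% were higher and 15.8% lower. The lower one was *Gm16602*, which RefSeq names *Trgv1*, at 9.05, 8.29 and 7.17 TPM in DN1 and at 1.09, 2.44 and 2.43 TPM in DN2a. By locus, 9 of 15 tested γ segments, 4 of 4 δ segments and 4 of 15 β segments were higher, and 0 of 11 α segments were called in either direction by limma, with 3 higher and 0 lower at an unadjusted p under 0.05. The files held 15 γ, 9 δ, 21 β and 153 α segments. Of the higher γ segments, *Gm17356* (*Trgc3*), *Trgj3* and *Trgj4* were above 1 TPM in DN2a alone. They were tested only because they were high there, so their direction carries no weight. Among β segments *Trbv13-2* was the most abundant V segment, at 297, 205 and 239 TPM in DN1 and at 730, 621 and 843 TPM in DN2a. Poly(A) RNA counted over segments does not tell rearranged from unrearranged transcripts.

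**Figure D2:**
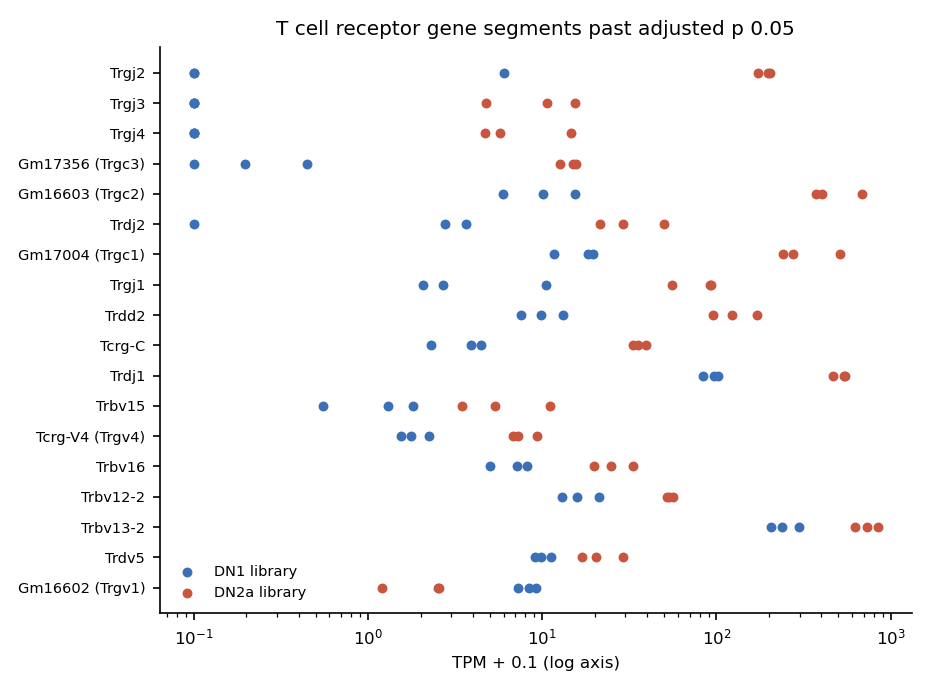
Level of the 18 called T cell receptor segments in each library, as TPM + 0.1 on a log axis; blue points are the 3 DN1 and red points the 3 DN2a libraries, and points at 0.1 are segments listed at 0. The red points lie to the right of the blue ones in 17 of 18 rows, all but *Gm16602* (*Trgv1*).

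The other genes among the 10 largest increases were *Tubb3*, *Insl5*, *A930003A15Rik* and *Mir6942*. *Tubb3*, a β-tubulin known from neurons, was at 1.11, 1.22 and 1.35 TPM in DN1 and at 47.5, 39.7 and 74.3 TPM in DN2a (log2 fold change 5.30 ± 0.24, limma adjusted p = 2.6e-05). *Insl5*, a peptide hormone of the insulin and relaxin family, was at 0.306, 0 and 0 TPM and then at 8.40, 9.35 and 5.30 TPM. The non-coding *A930003A15Rik* was at 0, 0.278 and 0.211 TPM and then at 6.92, 9.24 and 4.92 TPM. The microRNA gene *Mir6942* was listed at 0 in DN1 and at 2.08, 5.63 and 9.20 TPM in DN2a, and the file marks its name as one of a class that the sources used here do not explain. Like *Insl5* and *A930003A15Rik*, it passed the filter only through DN2a. Over the alternative settings given below, its log2 fold change ran from 2.15 to 8.90. That of *Insl5* ran from 2.96 to 7.89 and that of *A930003A15Rik* from 2.76 to 6.31, so their place among the 10 is uncertain.

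Genes of T cell receptor signalling changed in both directions. Of 36 listed CD3, pre-TCR and T cell signalling genes 32 were tested, 13 were higher and 9 lower, with a median log2 fold change of 0.37 beside -0.19 for all genes. *Trat1*, an adaptor that stabilizes the receptor complex, was at 10.5, 13.8 and 20.2 TPM in DN1 and at 163, 165 and 134 TPM in DN2a (log2 fold change 3.41 ± 0.23, limma adjusted p = 8.13e-05). *Themis*, which acts in receptor signalling during thymocyte selection, was at 0.511, 0.347 and 0.565 TPM and then at 8.27, 9.87 and 7.83 TPM. *Thy1*, a surface glycoprotein of thymocytes, was at 70.9, 62.1 and 70.0 TPM and then at 413, 299 and 403 TPM. *Thy1* was 5.44-fold and *Themis* 15.4-fold higher, and for *Trat1* and *Thy1* the rise lay far beyond the spread of either stage. *Themis* was under 1 TPM in every DN1 library and passed the filter only through DN2a, so its direction carries no weight. Over the alternative settings its log2 fold change ran from 2.71 to 4.40. *Skap1*, an adaptor that couples the receptor to integrins, rose 4.62-fold, and *Rasgrp1*, an activator of Ras, rose 3.58-fold with DN2a libraries spread from 7.47 to 18.8 TPM. The ζ chain gene *Cd247* rose 2.98-fold, *Lat* 2.44-fold and the kinase gene *Lck* 1.95-fold.

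The CD3 genes split. *Cd3g* was at 10.7, 9.28 and 11.3 TPM in DN1 and at 28.4, 15.6 and 18.1 TPM in DN2a, a 1.92-fold rise (limma adjusted p = 0.0231). *Cd3d* was at 7.197, 6.98 and 11.7 TPM and then at 1.57, 2.21 and 1.17 TPM, 4.99-fold lower (limma adjusted p = 0.00148). *Cd3e* was at 14.2, 14.1 and 22.5 TPM and then at 17.9, 9.04 and 10.4 TPM, with overlapping stages (limma adjusted p = 0.255). The other members that fell past the 3 thresholds encode surface molecules of T and NK lineage lymphocytes. *Cd2*, an adhesion receptor of T and NK cells, was at 8.18, 5.73 and 8.27 TPM in DN1 and at 0.443, 0.1 and 0 TPM in DN2a (log2 fold change -5.06 ± 0.59, limma adjusted p = 0.000841). *Cd4*, the co-receptor for MHC class II, was at 7.96, 8.99 and 7.87 TPM and then at 0.583, 0.652 and 0.971 TPM. *Cd7*, a surface protein of early T and NK cells, was at 431, 440 and 442 TPM and then at 122, 116 and 95.9 TPM. CD4 was among the lineage antigens excluded in both gates. *Cd2* and *Cd4* passed the filter on low values only through DN1.

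**Figure D3:**
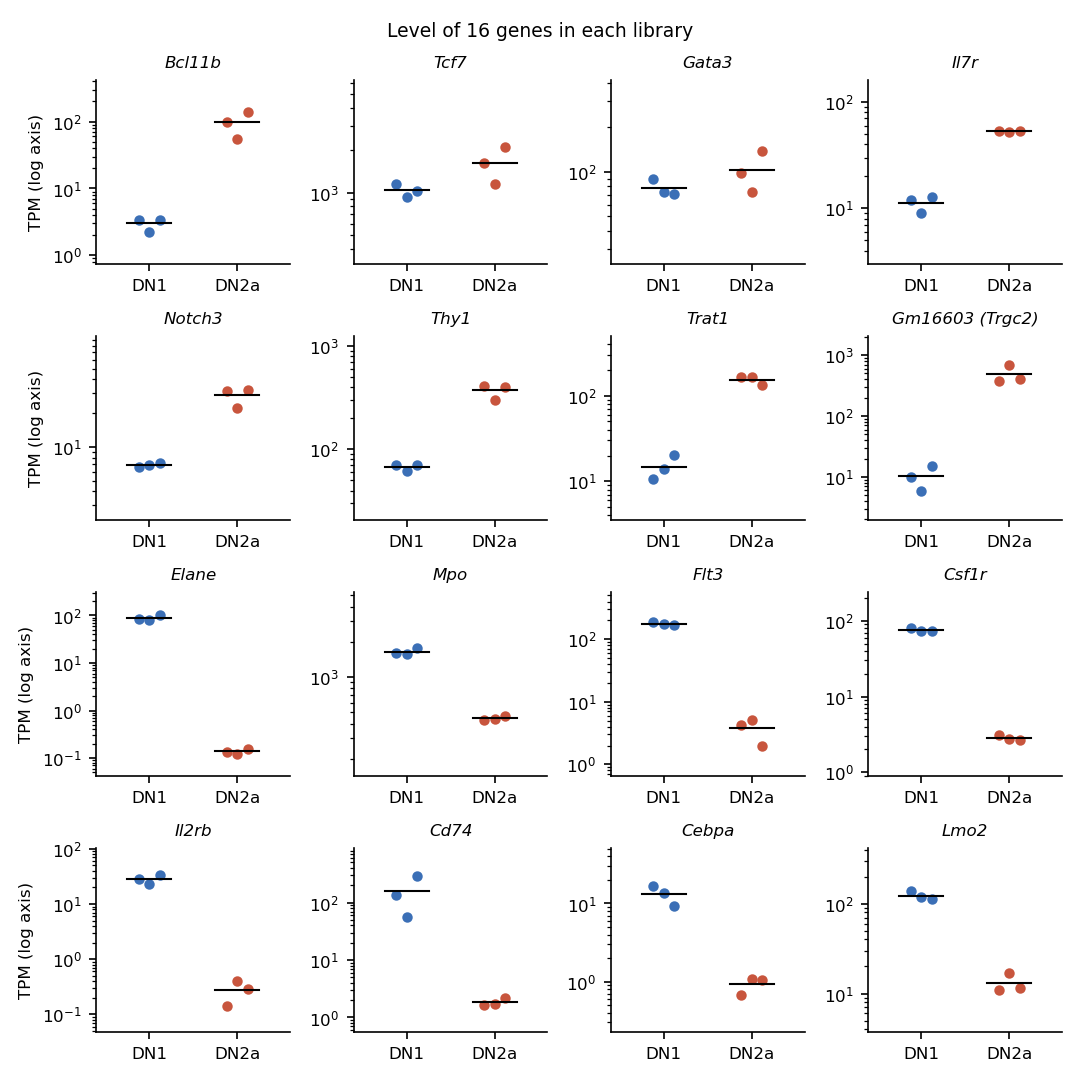
TPM of 16 genes in each library on log axes that differ between panels; each point is 1 library, with DN1 in blue and DN2a in red in the order of the text, and lines are means of 3. The stages overlap in the panels of *Gata3* and *Tcf7* and in none of the other 14.

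Among 29 T-lineage specification factors, all tested, 2 were higher and 10 were lower. These shares were 6.9% and 34.5%, beside 7.72% and 15.8% of all genes tested. *Bcl11b*, which is required for commitment to the T cell lineage, was at 3.44, 2.23 and 3.37 TPM in DN1 and at 96.8, 54.8 and 139 TPM in DN2a. Its log2 fold change was 4.89 ± 0.33 (limma adjusted p = 8.13e-05), and the lowest DN2a library exceeded the highest DN1 library. *Tcf7*, the gene of TCF1 and an early Notch target, was already at 1155, 931 and 1022 TPM in DN1 and at 1637, 1149 and 2112 TPM in DN2a, and its difference did not pass the test (0.62 ± 0.21, limma adjusted p = 0.0655). The other higher factor was *Spib*, 4.02-fold higher at a mean of 3.57 ± 0.86 TPM (SD, n = 3) in DN2a. *Lef1*, a relative of *Tcf7*, fell from 5.14, 5.31 and 5.27 TPM to 1.54, 0.995 and 1.33 TPM. *Id3*, an inhibitor of E proteins, fell from 12.7, 11.4 and 15.4 TPM to 4.48, 3.48 and 3.95 TPM. *Runx2*, *Sox13*, *Tox*, *Nfatc1*, *Runx3*, *Satb1*, *Rora* and *Hes1* were the remaining lower factors, with log2 fold changes of -0.40 (*Hes1*) to -2.04 (*Rora*). The median of the list was -0.46, or -0.26 after median centring, when 5 were higher and 9 lower, and without DN2a replicate 2 there were 3 higher and 18 lower.

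Among 26 tested genes of the Notch pathway, 1 was higher and 12 were lower, with a median log2 fold change of -0.59. After median centring 1 was higher and 9 were lower, and without DN2a replicate 2 there were 1 and 22. *Notch3*, a receptor gene, was the one that rose, from 6.65, 6.89 and 7.24 TPM to 31.7, 22.3 and 32.5 TPM (log2 fold change 2.02 ± 0.18, limma adjusted p = 0.00023). *Notch2* was 2.48-fold lower, at 35.9, 27.1 and 53.4 TPM in DN2a. *Notch1*, the receptor that drives T cell specification, was at 638, 602 and 494 TPM in DN1 and at 379, 260 and 472 TPM in DN2a (limma adjusted p = 0.0556). The target and feedback genes *Hes1*, *Dtx1* and *Nrarp* were 1.32-fold, 1.54-fold and 1.87-fold lower. *Myc*, also in this list, was 2.10-fold lower.

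In V(D)J recombination, 1 of 12 genes was higher and 2 were lower. These shares, 8.33% and 16.7%, lay near the 7.72% and 15.8% of all genes tested. *Lig4*, the ligase that joins broken ends, rose from 2.10, 1.87 and 1.61 TPM to 7.41, 7.45 and 9.80 TPM (4.23-fold, limma adjusted p = 0.00044). The recombinase genes were near 5 TPM in both stages, *Rag1* at 3.42, 5.06 and 3.42 TPM and then 5.32, 3.91 and 6.59 TPM, and neither *Rag1* nor *Rag2* passed the test (limma adjusted p = 0.276 and 0.0767). *Dntt*, which adds nucleotides at the joins, fell from a mean of 1398 ± 49 TPM to 727 ± 83 TPM (SD, n = 3 each), and *Poll* was 2.58-fold lower.

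Of 33 listed progenitor factors, 30 were tested, 20 were lower and 1 was higher, with a median log2 fold change of -1.23 beside -0.19 for all genes; 19 were lower and 3 higher after median centring. *Cebpa*, the master regulator of the myeloid fate, was at 16.9, 13.7 and 9.15 TPM in DN1 and at 0.671, 1.08 and 1.06 TPM in DN2a (log2 fold change -3.66 ± 0.29, limma adjusted p = 0.000134). *Lmo2*, a bridging factor of stem cells, was at 137, 119 and 111 TPM and then at 11.1, 17.1 and 11.6 TPM. *Meis1*, a homeobox factor of stem cells, was at 21.9, 21.0 and 21.3 TPM and then at 2.69, 2.67 and 2.10 TPM. In these 3 genes every DN2a library lay far below every DN1 library. *Gata2* fell 8.62-fold, *Hoxa9* 5.55-fold, *Mef2c* 4.86-fold, *Bcl11a* 3.28-fold, *Nfil3* 3.12-fold and *Lmo1* 3.00-fold. *Spi1*, the gene of PU.1, fell less, from 449, 457 and 437 TPM to 168, 164 and 219 TPM (2.46-fold, limma adjusted p = 0.000554). The single higher member was *Zbtb16*, the gene of PLZF, a factor of innate-like lymphocytes, which rose from 4.28, 3.09 and 2.86 TPM to 13.3, 12.0 and 23.6 TPM.

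Cytokine and growth factor receptors were rearranged. Of 37 tested, 20 were lower and 5 higher, the gated *Il2ra* among the latter, with a median log2 fold change of -0.80. *Flt3*, the tyrosine kinase receptor of lymphoid and myeloid progenitors, was at 187, 173 and 170 TPM in DN1 and at 4.28, 5.07 and 1.93 TPM in DN2a (log2 fold change -5.62 ± 0.32, limma adjusted p = 4.2e-05). *Il2rb*, the β chain shared by the IL-2 and IL-15 receptors, was at 28.4, 22.6 and 34.1 TPM and then at 0.141, 0.399 and 0.282 TPM. So the α and β chain genes of the IL-2 receptor differed in opposite directions, *Il2ra* by gate and *Il2rb* by -6.29 ± 0.31 on the log2 scale (limma adjusted p = 2.92e-05). *Il2rb* passed the filter on low values only through DN1. *Csf1r*, the M-CSF receptor, was at 79.9, 74.2 and 73.8 TPM and then at 3.14, 2.76 and 2.65 TPM. Other receptors of myeloid growth factors and inflammatory cytokines fell with them: *Il6ra* 11.5-fold, *Csf2rb* 7.86-fold, *Il1r1* 6.49-fold, *Il18r1* 5.41-fold, *Csf3r* 5.36-fold, *Il18rap* 4.76-fold, *Ifngr2* 4.69-fold and *Il6st* 3.45-fold. *Il7r*, whose product supports survival of DN2 and DN3 thymocytes, rose from 12.1, 9.01 and 12.7 TPM to 53.1, 51.9 and 53.5 TPM (2.23 ± 0.16, limma adjusted p = 0.000103). *Il17rb*, a receptor for IL-25, rose from 42.2, 36.5 and 36.3 TPM to 130, 107 and 177 TPM. In bulk samples such as these, fewer cells that express a gene and less RNA per cell cannot be told apart.

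Homing molecules also fell more often than they rose, with 13 of 22 lower and 2 higher. The higher share was 9.09%, near the 7.72% of all genes tested. *Ccr9*, the receptor for the thymic chemokine CCL25, was at 18.1, 20.6 and 18.8 TPM in DN1 and at 1.11, 0.949 and 0.749 TPM in DN2a (log2 fold change -4.23 ± 0.20, limma adjusted p = 2.77e-05). *Ccr7*, which guides progenitors into the thymus, was at 13.7, 13.4 and 13.2 TPM and then at 2.59, 2.26 and 3.13 TPM. *S1pr1*, the receptor for lymphocyte exit, fell 11.2-fold to a mean of 0.428 ± 0.110 TPM (SD, n = 3). The 2 higher members were *Cxcr4*, which holds early thymocytes in the cortex, at 1.95-fold, and the integrin gene *Itga4* at 2.17-fold. Among 21 surface molecules of progenitors, *Ly6d* rose from 302, 291 and 295 TPM to 2248, 1910 and 1597 TPM while the stem cell marker *Cd34* fell from 646, 622 and 685 TPM to 134, 174 and 150 TPM.

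Several granule genes of myeloid progenitors fell, by very different amounts. *Elane*, neutrophil elastase, was at 86.2, 80.7 and 103 TPM in DN1 and at 0.138, 0.124 and 0.153 TPM in DN2a. Its log2 fold change of -8.56 ± 0.18 (limma adjusted p = 5.77e-07) was the largest fall among genes past the 3 thresholds. *Elane* passed the filter on low values only through DN1. *Prtn3*, proteinase 3, was at 89.9, 73.0 and 95.6 TPM and then at 3.90, 6.92 and 3.802 TPM. *Mpo*, myeloperoxidase, was far more abundant in both stages, at 1604, 1567 and 1769 TPM and then at 426, 442 and 469 TPM. So *Mpo* fell 3.69-fold and *Elane* far more, and the stages overlapped in neither. *Ctsg*, cathepsin G, fell 2.17-fold.

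PU.1 (*Spi1*) is a known regulator of granule genes in myeloid cells and TCF1 (*Tcf7*) of T-lineage genes, so promoters of 3 granule genes are shown beside those of 2 genes that rose, *Bcl11b* and *Trat1*. The sequences come from RefSeq (GRCm38.p6) and were chosen for a match to a PU.1 or TCF1 motif upstream of the start site. Capitals mark the PU.1 motif GAGGAAGT in the first 3 sequences and the TCF1 motif CTTTGA in the others, although the promoter of *Mpo* also holds CTTTGA elsewhere, and the strand given is that of the gene.
Elane, chr10:79886167-79886294, plus strand: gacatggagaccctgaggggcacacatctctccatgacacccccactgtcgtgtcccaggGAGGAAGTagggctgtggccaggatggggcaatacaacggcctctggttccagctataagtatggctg
Prtn3, chr10:79879512-79879639, plus strand: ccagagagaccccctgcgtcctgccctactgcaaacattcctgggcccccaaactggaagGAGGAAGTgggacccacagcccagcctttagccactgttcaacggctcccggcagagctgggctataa
Mpo, chr11:87793534-87793627, plus strand: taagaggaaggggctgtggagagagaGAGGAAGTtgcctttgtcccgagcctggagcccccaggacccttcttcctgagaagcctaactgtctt
Bcl11b, chr12:108003438-108003563, minus strand: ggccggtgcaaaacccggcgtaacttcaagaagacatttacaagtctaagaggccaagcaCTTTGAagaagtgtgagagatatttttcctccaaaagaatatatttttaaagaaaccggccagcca
Trat1, chr16:48772217-48772312, minus strand: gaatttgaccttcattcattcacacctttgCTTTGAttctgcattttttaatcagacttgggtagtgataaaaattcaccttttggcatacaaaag
Promoters of 9016 of the 12443 tested genes were found, each of 300 bases from 250 before to 50 after the start, and were searched on both strands for 6 motifs. GAGGAAGT was in 3.94% of all of them, in 20 of 202 promoters (9.90%) of genes lower past the 3 thresholds and in 1 of 52 (1.92%) of the higher genes. CTTTGA was in 14.2% of all, 15.4% of the higher and 13.9% of the lower. The GATA factor motif AGATAA was in 7.83% of all, 15.4% of the higher, which is 8 of 52, and 8.91% of the lower. In the same order, the RBPJ motif TGGGAA was in 26.2, 30.8 and 31.2%, the E box CAGCTG in 17.4, 23.1 and 21.8%, and the E box CAGGTG in 20.7, 23.1 and 19.8%. In the larger sets called by adjusted p alone, GAGGAAGT was in 5.49% of 1458 promoters of lower genes and 3.61% of 692 of higher genes, AGATAA in 9.40 and 9.83%, and CAGGTG in 24.6 and 22.4%. For CAGGTG the lower genes thus lay above the 20.7% of all promoters in this set and below it in the smaller one. A match is a description and not a binding site.

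Genes of MHC class II presentation were lower in 10 of 11 cases, 8 of them past the 3 thresholds, with a median log2 fold change of -2.13. They varied widely within DN1. *Cd74*, the invariant chain, was at 134, 56.2 and 293 TPM in DN1 and at 1.65, 1.70 and 2.20 TPM in DN2a. *H2-Aa* was at 46.0, 14.7 and 109 TPM and then at 3.08, 2.55 and 2.16 TPM, and *H2-Eb1* at 29.3, 10.02 and 90.3 TPM and then at 1.25, 1.08 and 1.13 TPM. DN1 replicate 2b was highest and replicate 2 lowest in each of these 3 genes. Without replicate 2b the log2 fold change of *Cd74* was -5.49 in place of -6.08 and kept its call (limma adjusted p = 0.000696). *Ctss*, a protease that trims the invariant chain, was even in DN1 at 69.6, 79.9 and 74.1 TPM and lower in DN2a at 7.97, 4.66 and 5.58 TPM.

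The remaining genes among the 10 largest falls were *Hopx*, *Lgals3*, *Cfc1*, *Ikzf3* and *1700003C15Rik*. *Hopx*, a homeodomain-only protein of stem and effector cells, was at 11.6, 16.7 and 15.6 TPM in DN1 and at 0.168, 0.0758 and 0.172 TPM in DN2a (log2 fold change -5.96 ± 0.30, limma adjusted p = 2.92e-05). *Ikzf3*, the gene of Aiolos, was at 5.69, 7.17 and 5.98 TPM and then at 0.124, 0.102 and 0 TPM, and it was the only called gene among 5 of the Ikaros family. *Lgals3*, galectin-3, was 44.9-fold lower, *Cfc1*, a Nodal co-receptor, 40.7-fold and *1700003C15Rik* 34.8-fold, each with DN2a libraries under 0.15 TPM. All these genes were under 1 TPM in every DN2a library, as were *Elane*, *Il2rb*, *Cd2*, *Cd4* and *S1pr1* above. They were tested only because they were high in DN1, so their direction carries no weight. At such levels the size of the fall depended on the settings. Over the alternatives the log2 fold change of *Lgals3* ran from -2.94 to -7.13 and that of *Cfc1* from -2.86 to -6.94. That of *1700003C15Rik* ran from -2.60 to -6.79, of *Ikzf3* from -2.76 to -6.88 and of *Hopx* from -3.77 to -6.69.

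Markers of other cell types were summed per library, since the gates could hold such cells. Granulocyte markers, 15 genes led by *Mpo*, summed to 1802 to 2059 TPM in DN1 and 468 to 509 TPM in DN2a. Conventional dendritic cell markers, which include *Cd74*, *H2-Aa* and *H2-Ab1*, summed to 322, 162 and 667 TPM in DN1 and 65.9 to 73.2 TPM in DN2a, so they moved with the MHC class II genes. NK cell and ILC markers summed to 1388 to 1538 and 954 to 1203 TPM, with *Nkg7* making up 779 and 715 TPM on average. Macrophage markers summed to 180 to 196 and 50.7 to 71.7 TPM, erythroid markers to 298 to 307 and 46.8 to 53.2 TPM, nearly all *Car2*, and stromal and epithelial markers to 393 to 444 and 242 to 312 TPM, mostly *Pdgfrb* and *Pecam1*. In the stromal list *Pdgfrb* fell and *Epcam* rose, and the median log2 fold change of its 4 tested members was 0.40, opposite to the sum. Markers of later thymocytes and mature T cells summed to 113 to 118 and 85.4 to 99.1 TPM. In these 7 lists every DN2a library lay below every DN1 library. Some tested members were called higher all the same. For NK cells and ILCs 2 of 8 were higher and 5 lower, for conventional dendritic cells 1 of 10 and 6. For later thymocytes and mature T cells 1 of 10 was higher and 6 lower. Few members of some lists passed the filter on low values: 4 of 15 for macrophages, 7 of 15 for granulocytes, 8 of 21 for NK cells and ILCs, 4 of 15 for stromal and epithelial cells, and 3 of 9 for erythroid cells.

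The summed plasmacytoid dendritic cell markers were higher in DN2a, at 1165 to 1187 TPM in DN1 and 2411 to 3031 TPM in DN2a, although 7 of 13 tested members were lower and 3 higher, and *Ly6d* made up most of the rise. Mast cell and basophil markers summed to 55.3 to 57.8 and 127 to 244 TPM. In that list *Cpa3*, a mast cell protease, rose from a mean of 29.4 to 164 TPM, while *Gata2*, *Hdc*, *Cma1* and *Mcpt4* fell, the last 2 to 0 in the 3 DN2a libraries. Of these, *Hdc*, *Cma1* and *Mcpt4* passed the filter only through DN1. B cell markers summed to 79.4 to 91.4 TPM in DN1 and 88.2 to 114 TPM in DN2a, mostly *Cd79b*, and *Pou2af1*, a B cell coactivator, rose from 0.653, 0.356 and 0.508 TPM to 6.90, 4.88 and 9.61 TPM. *Pou2af1* passed the filter only through DN2a. *Gzma*, a granzyme of cytotoxic cells, rose from 1.91, 1.80 and 2.54 TPM to 21.2, 32.4 and 16.3 TPM. The part of other cells in any of these changes was not tested.

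S phase genes were higher in 10 of 30 cases and lower in none, with a median log2 fold change of 0.30, for instance *Ccne2* 2.50-fold, *Rrm2* 1.91-fold and *Pcna* 1.71-fold. The S phase counts depended on DN2a replicate 2, without which 11 were higher and 6 lower, and on scaling, with 19 higher and none lower after median centring. Genes of mitosis were called in 4 of 25 cases, 3 higher and 1 lower, but without DN2a replicate 2 in 13, 3 higher and 10 lower. Sterol synthesis genes were higher in 5 of 19 and lower in none, and in 10 after median centring. Interferon-stimulated genes were lower in 14 of 22 and higher in none, *Oas3* falling from 51.1, 48.3 and 44.6 TPM to 10.2, 7.95 and 14.4 TPM and *Irf7* from 70.5, 84.2 and 79.7 TPM to 25.8, 25.1 and 25.9 TPM. Immediate-early genes, which respond within minutes to signals or handling, were lower in 12 of 21 and higher in none, with *Nr4a1* 5.64-fold, *Zfp36* 4.39-fold and *Klf2* 4.11-fold lower. In the direction with no calls, 1 sterol synthesis gene, *Srebf2*, and none of the S phase, interferon-stimulated or immediate-early genes had an unadjusted p under 0.05 by limma. Glycolysis genes were lower in 8 of 17 and higher in 2, *Ldha* among the higher. In that list *Gapdh* averaged only 4.33 and 8.99 TPM and *Eno1* 1.19 and 1.00 TPM in DN1 and DN2a. *Aldoa* averaged 821 and 729 TPM. Why *Gapdh* and *Eno1* were so low was not tested, and their values are uncertain.

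Of the smaller lists, E and Id proteins had 3 of 6 lower, the Bcl2 family 3 of 14 (6 lower and 2 higher without DN2a replicate 2), the Myc network 6 of 11 lower and 2 higher, the Gimap family 4 of 8 lower and 1 higher, and the SLAM family 1 of 7 in each direction. A list of genes repressed by Pax5 had 6 members, of which 3 were lower in DN2a, *Flt3*, *Il18rap* and *Ffar2*, and none was higher by limma (1 at an unadjusted p under 0.05, *Gpr25*). That list came from the study itself and is not independent evidence of its direction. All these shares stand beside 7.72% higher and 15.8% lower over all genes tested.

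**Figure D4:**
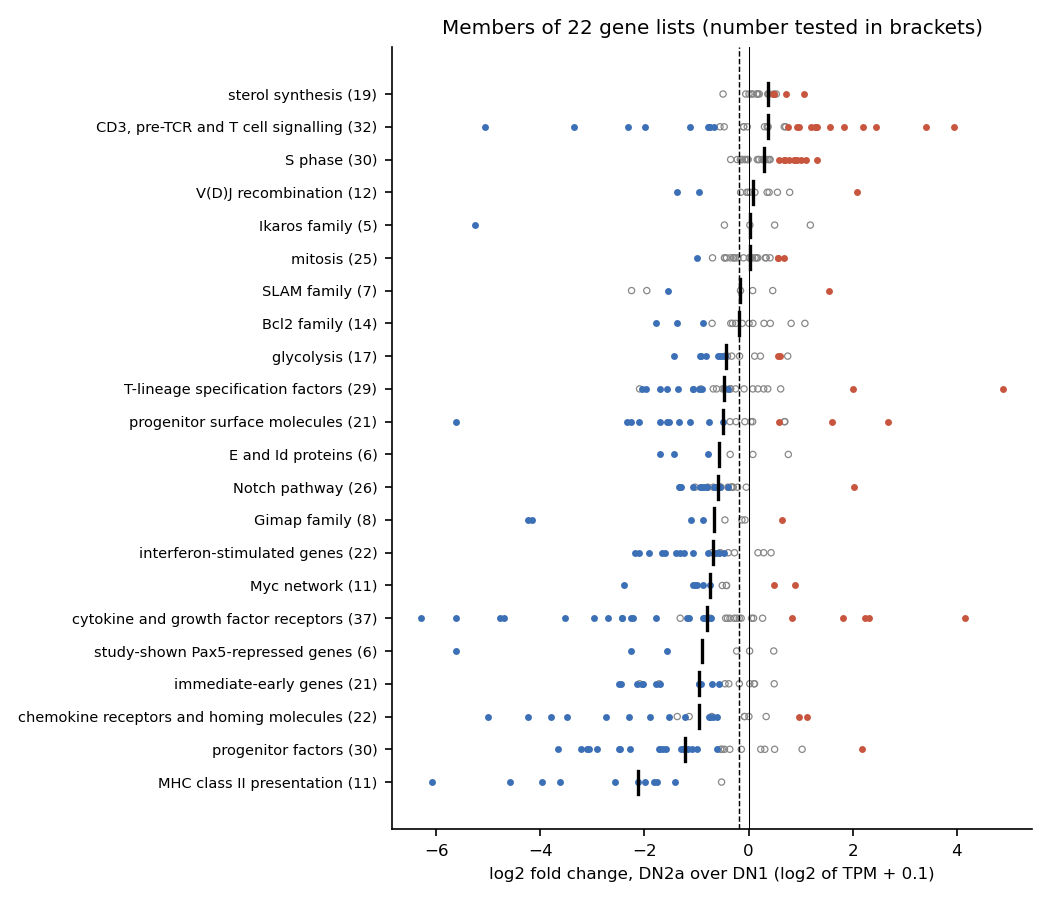
Log2 fold change, DN2a over DN1, of the tested members of 22 gene lists; red and blue points are members higher and lower in DN2a at an adjusted p under 0.05, open circles did not pass, and thick bars are list medians. The dashed line is the median of all genes, and medians run from -2.13 (MHC class II presentation) to 0.37 (sterol synthesis and T cell signalling).

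The same pipeline gave libraries of earlier and later stages, which place the step in a series. *Bcl11b* averaged 0.369 TPM in LMPPs, lymphoid-primed progenitors of the bone marrow (2 libraries), 3.01 TPM in DN1 and 97.0 TPM in DN2a, and 333 TPM in DN2b (3 libraries). *Thy1* averaged 13.8, 67.7, 372 and 2185 TPM over these 4 stages. *Flt3* went the other way, averaging 689, 177, 3.76 and 1.23 TPM, as did *Lmo2* at 947, 123, 13.2 and 2.75 TPM. Other genes were higher in DN1 than in LMPPs, DN2a and DN2b. *Il2rb* averaged 0.384, 28.4, 0.274 and 0.1695 TPM, *Ikzf3* 0.0687, 6.28, 0.0752 and 0.1195 TPM, and *Cd2* 0.1195, 7.39, 0.181 and 0.323 TPM. In later stages *Ikzf3* averaged 5.92 TPM in DN3a and 23.6 TPM in DN3b, and *Cd2* 1.68 and 34.6 TPM, so both exceeded their DN1 mean in DN3b. *Elane*, at 4.51 TPM in LMPPs, had this shape too, while *Prtn3* at 723 TPM in LMPPs did not. *Cd3d* averaged 0.266 TPM in LMPPs, 8.62 TPM in DN1, 1.65 TPM in DN2a and 62.1 TPM in DN2b, and *Ccr9* 7.48, 19.2, 0.935 and 9.77 TPM, so in both DN2a was a low point between higher neighbours. *Zbtb16* peaked in DN2a, averaging 0.744, 3.41, 16.3 and 2.63 TPM. These levels are given without a test.

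**Figure D5:**
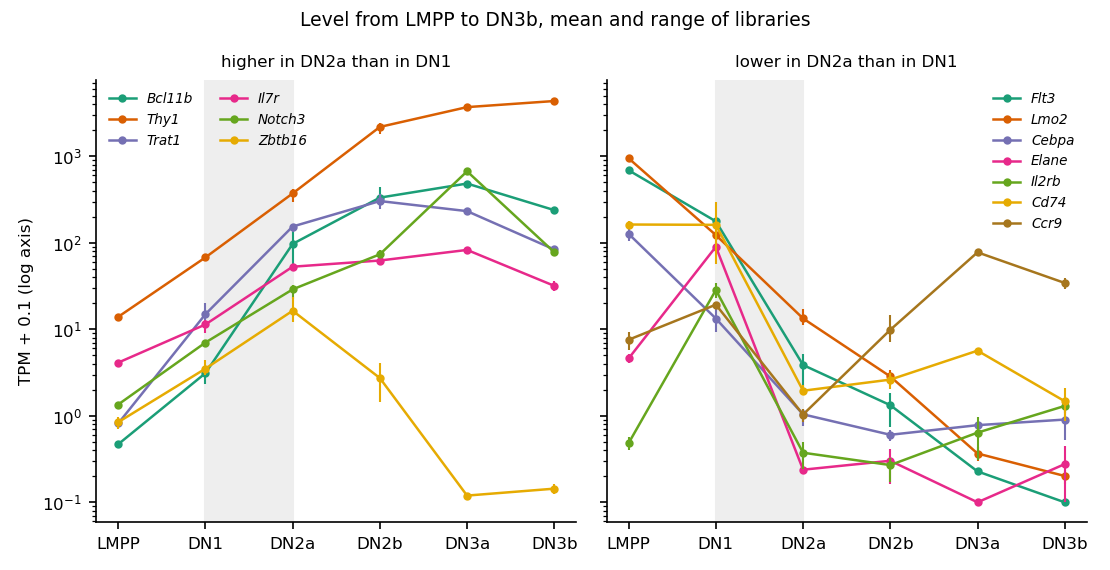
Mean TPM + 0.1 (log axis) of 13 genes in wild-type libraries from LMPP to DN3b; bars span the lowest to the highest library of a stage and the grey band marks the step from DN1 to DN2a. *Zbtb16* falls after DN2a, and *Il2rb* and *Elane* rise from LMPP to DN1 before they fall.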

How the data were processed

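RNA of wild-type DN1 and DN2a cells had been sequenced by the authors from NEBNext Ultra II poly(A) libraries. The deposited files hold TPM values on the mm9 build, made by the authors from reads aligned with TopHat 1.4.1, and their processing notes also name Bowtie 1.0.0, STAR 2.4.2a and SAMtools 1.9. Each gene has 2 values that the files do not tell apart. Their mean was used here, and an entry of exactly 1 was read as 0. The files carry no counts, so depth is known only in relative terms. A mark in some gene names, among them *Cd74*, *Csf1r*, *Cpa3*, *Lck* and *Notch1*, is not explained in the sources used here, and genes with near-identical copies are uncertain.

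Genes above 1 TPM in at least 1 of the 6 libraries were tested with limma 3.58.1 (R 4.3.3) on log2(TPM + 0.1), with a trend of the spread on the mean and Benjamini-Hochberg adjustment over all 12443 genes. The thresholds of the study were an adjusted p under 0.05, a change above 3-fold and a mean above 5 TPM in 1 stage. Libraries with the same replicate number differed by more than counting noise and were kept apart. Differently numbered libraries of a stage did so to a like degree. This check cannot tell libraries of separate animals from repeated preparations of the same sample, and the test treats all libraries of a stage as independent. Genes named were the 10 largest changes in each direction among called genes with a mean above 5 TPM in the higher stage and stages that do not overlap, members of 7 lists past those thresholds, the genes of the gates and *Gata3*, and examples of each list. The genes, lists and tests were chosen with earlier results of these data known. The test was first tried on generated data with known changes. It called 36 of 66 genes with a true log2 change of 1, 65 of 67 with a change of 2, and 11 of 12243 unchanged genes. A gene that did not pass may thus still differ about 2-fold. The generated noise was independent between genes and held no shift of a whole library. Tables and figures were made with Python 3.11.15, pandas 2.3.3 and matplotlib 3.10.9. Promoters and receptor segment names came from RefSeq (GRCm38.p6) by symbol, and no coordinate was converted between builds. Alternatives covered the choice among the 2 values, pseudocounts, filters, scaling, the fit and the libraries. The other libraries of the series were not analysed here, except those of the wild-type stages from LMPP to DN3b.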

Additional observations from a re-analysis of the deposited data

How the results depend on the processing

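The counts of genes that passed the adjusted p depended on the processing, and those past the 3 thresholds much less. Genes higher in DN2a, 960 in the reported fit, were 1604 after median centring and 1767 after quantile normalization, and list members higher, 52, were 83 and 87. With same-numbered libraries averaged, 215 genes were higher and 645 lower. Leaving out 1 library gave 315 to 1715 higher and 861 to 4980 lower genes, and 32 to 63 higher and 101 to 210 lower list members, against 155 lower in the reported fit. Past the 3 thresholds every alternative gave 83 to 107 higher and 210 to 361 lower genes. Rescaling without the 50 most abundant genes, an alternative chosen after seeing the data, gave 1172 higher and 2092 lower genes.

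With the replicate number as a replicate block, 515 genes were higher and 1199 lower, 93 and 266 past the 3 thresholds. The numbers were not taken as pairing, since deviations of same-numbered libraries correlated at only -0.14 to 0.00 across genes. Of 61 named genes, none reversed. The size of the change depended on the settings for genes at or near 0 in 1 stage. For instance, the log2 fold change of *Trgj3* ran from 3.07 to 9.83 and that of *Lgals3* from -2.94 to -7.13. The place of such genes among the 10 largest changes is therefore uncertain. *Trdj2* lost its call with a pseudocount of 0.01 (limma adjusted p = 0.0592), without the trend (0.0501), with the block (0.0503) and without DN2a replicate 1 (0.0741). *Gata3* gained one under both scalings, at adjusted p = 0.0336 and 0.0461 by limma. *Kit* gained one with all 15 wild-type libraries (limma adjusted p = 0.0453) and without DN2a replicate 2 (0.0095). The medians of the Ikaros, Bcl2, mitosis and SLAM lists lay near 0 and changed sign under some alternatives. The cause of these changes was not tested.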

Other observations

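Chosen after their values were seen, some of the most abundant transcripts rose together in DN2a. *Crip1*, a small LIM protein of unsettled function, was at 3759, 4039 and 3897 TPM in DN1 and at 11557, 10699 and 7970 TPM in DN2a (log2 fold change 1.35 ± 0.14, limma adjusted p = 0.00046). *Plac8*, a small cysteine-rich protein of haematopoietic cells, was at 2451, 2759 and 3125 TPM and then at 7570, 13568 and 5717 TPM. *Tmsb4x*, which binds monomeric actin, was at 1923, 2010 and 2489 TPM and then at 3988, 5642 and 3165 TPM. In each of these 3 genes DN2a replicate 2 was the lowest of its stage and still above every DN1 library.

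The 80 genes of ribosomal proteins together held 14.3, 16.9 and 15.9% of all TPM in the DN1 libraries and 19.6, 20.1 and 14.2% in DN2a replicates 1, 1b and 2. The share was thus higher in 2 of 3 DN2a libraries than in any DN1 library and lowest of all in DN2a replicate 2. Since TPM values of a library sum to a fixed total, a larger share of these genes goes with lower values of others, and how much of the shift of the median gene this makes up was not tested.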
